A study of Homo sapiens with 30 samples.

Results

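RNA was sequenced from the acute myeloid leukemia (AML) line MV4-11 after knockout (KO) of MPC1, a subunit of the mitochondrial pyruvate carrier, and from empty vector (EV) cells, and the comparison asks which transcripts differ without the targeted gene. The libraries described here are the 3 MV4-11 KO and the 3 MV4-11 EV libraries, 6 of the 30 libraries of the series, taken by the cell line and treatment in their labels. Of the 58051 genes listed, the 14490 that passed a filter on low counts were tested, and each effect is KO minus EV on the log2 scale. MV4-11 is a human AML line with an internal tandem duplication in FLT3 (FLT3-ITD). KO cells received a lentiCRISPRv2 construct with Cas9, a GFP selection marker and a single guide RNA against human MPC1, and EV cells received the nontargeting vector. Both were grown in RPMI medium with 10% fetal bovine serum in normoxia. The sources used here do not say whether the 3 libraries of a group came from separate cultures, infections or clones, so p-values measure only the spread between libraries, which may be technical. That spread was estimated jointly from 18 libraries, which include the KO and EV libraries of the lines Molm-14 and THP-1. The labels also give no sequencing date or batch.

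Pyruvate, the end product of glycolysis, enters mitochondria through a carrier in the inner membrane built from MPC1 and MPC2. Inside, pyruvate dehydrogenase turns it into acetyl-CoA for the TCA cycle, and pyruvate carboxylase turns it into oxaloacetate. Cells without the carrier can feed the cycle from glutamine and fatty acids instead, and AML cells, which depend on oxidative phosphorylation, are a setting in which this choice of fuel has been studied.

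The 6 libraries held 6230695 to 8493516 counts in genes. A count of 0 in a library allows up to 3 counts, or 0.348 to 0.463 CPM (counts scaled to a fixed library total), and this floor covers counting error only. All 12 markers of a myeloid leukemia line were tested, among them CD33, FLT3, HOXA9, MEIS1 and LYZ. Their summed level was 7789 to 9593 CPM in EV and 7853 to 8908 CPM in KO. Most of this sum was LYZ, with 5966 to 7529 CPM in EV and 5847 to 6803 CPM in KO. Others of the 12 were low, such as MPO (8.63 to 9.16 CPM in EV and 6.16 to 6.89 in KO) and ITGAM (2.56 to 3.24 and 3.76 to 4.53). Markers of other cell types were low. Summed levels were 11.2 to 14.8 CPM in EV and 10.5 to 12.9 CPM in KO for 12 erythroid markers, of which 8 including HBB were at 0 in all 6 libraries. They were 9.05 to 11.6 CPM in EV and 8.42 to 11.3 CPM in KO for 10 megakaryocyte markers and 29.9 to 30.6 CPM and 27.0 to 34.1 CPM for 11 T and NK cell markers, with PF4, PPBP, CD3D and CD2 at 0 throughout. For 10 B cell markers they were 15.6 to 23.9 CPM in EV and 27.0 to 34.6 CPM in KO, with MS4A1 and CR2 at 0, and for 11 epithelial and stromal markers 3.50 to 4.32 CPM and 6.54 to 7.14 CPM, with EPCAM and CDH1 at 0. EV replicate 1 stood apart from its group. It lay at -0.48 on the first principal component, which held 38.4% of the variance, while EV replicates 2 and 3 lay at -25.7 and -24.0 and the KO libraries at 22.7, 21.8 and 5.66. Bulk RNA cannot tell fewer cells of a kind from less RNA per cell.

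The targeted gene was examined first, because it checks the labels. MPC1 (chromosome 6, 166364919 to 166383013, minus strand, GRCh38) had 56.4, 58.3 and 53.7 CPM in the EV libraries and 26.0, 24.8 and 23.5 CPM in the KO libraries. No KO library reached the lowest EV library. MPC1 fell by 1.18 on the log2 scale (SE 0.097, edgeR false discovery rate (FDR) 1.33e-08), to 44.2% of the EV mean. Counts cover all exons of the gene, and the position of the guide is not given in the sources used here. They therefore do not show how much of the remaining RNA came from edited copies of the gene. The FDR here is the Benjamini-Hochberg adjusted p of edgeR's quasi-likelihood test, and genes under 5% are called changed.

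No other tested gene near MPC1 was called. Of the tested genes within 10 Mb, 30 lay on the centromere side and 18 on the telomere side, and edgeR and DESeq2 called 0 of either, with an unadjusted p under 0.05 for 2 and 3 of them. The quality-weighted limma fit called 3 on each side. Over all 14490 tested genes, edgeR called 5.41%, DESeq2 called 764 and the quality-weighted limma fit called 2621, and 3236 had an unadjusted edgeR p under 0.05. With so few genes near MPC1, 0 calls is not far from that edgeR share. The neighbours on the centromere and telomere sides had median effects of 0.0067 and 0.0063. Among those with a mean of at least 100 counts the effects ran from -0.36 to 0.36 and from -0.35 to 0.25. The nearest on the centromere side with such counts, SFT2D1, a vesicle transport protein, had an effect of 0.12 (SE 0.095, edgeR FDR 0.491), and RNASET2, a lysosomal ribonuclease on the telomere side, had -0.03 (SE 0.098, edgeR FDR 0.908).

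**Figure D1:**
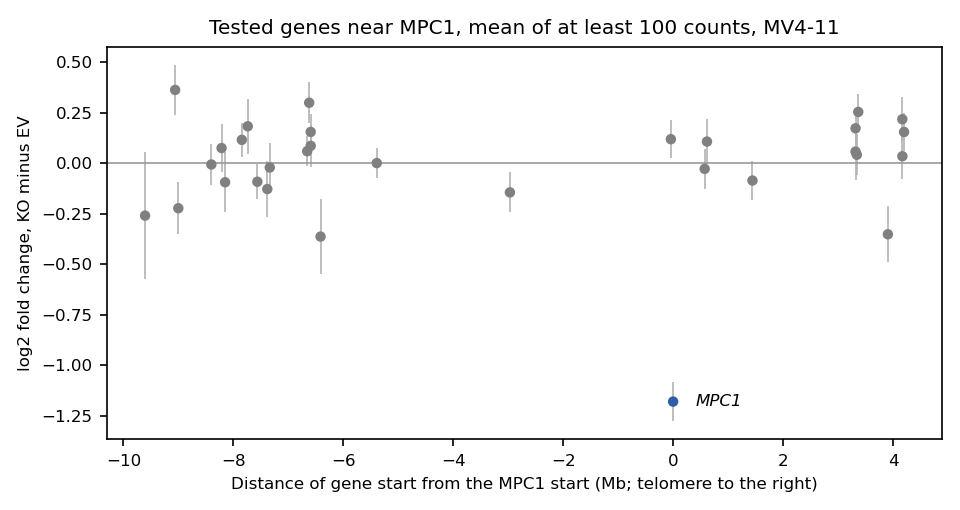
Effect of the knockout in MV4-11 (log2 fold change, KO minus EV, bars are the standard error) against the distance of each gene's start from the MPC1 start in megabases, for tested genes within 10 Mb with a mean of at least 100 counts. MPC1 lies at -1.18 and its neighbours between -0.36 and 0.36.

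MPC2 is the partner of MPC1 in the carrier. Its level was 79.3, 59.5 and 67.4 CPM in EV and 90.5, 83.8 and 82.2 CPM in KO, a rise of 0.31 (SE 0.093, edgeR FDR 0.0475). The rise was near the threshold, with an FDR of 0.00548 without EV replicate 1 and of 0.0546 to 0.248 without each of the other 5 libraries. MPC2 was also not called with DESeq2, with relative log expression scaling, without the filter, after a GC correction or with the 6 libraries alone (FDR 0.052 to 0.132). Per exon length, EV cells held 36.4 CPM of MPC1 per kilobase and 26.1 of MPC2, and KO cells held 16.1 and 32.4. On this scale MPC1 was the higher of the pair in EV cells and MPC2 in KO cells, in every library. In CPM without the length, MPC2 was the higher in every EV library as well. The length was the union of all annotated exons of a gene, which can differ from that of the transcripts present, so the order of the pair in EV cells depends on it. A gene on the opposite strand held over 20% of MPC2's counts and the strand setting of the counting is not stated, so the MPC2 level could hold reads of that gene. Of the 15 genes of the carrier and pyruvate dehydrogenase list, only MPC1 and MPC2 were called. The list median was 0.07, beside 0.02 over all tested genes. The catalytic subunit PDHA1 had an effect of -0.05 (SE 0.085, edgeR FDR 0.789), and the inhibitory kinase PDK1 had 0.07 (SE 0.110, edgeR FDR 0.739). Pyruvate carboxylase (PC) had 0.23 (SE 0.159, edgeR FDR 0.41).

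Among the clearest falls were ARRDC4 and TXNIP, members of the alpha-arrestin family that restrain glucose uptake and whose genes are activated by the glucose-sensing factors MLXIP and MLX. MLXIP and MLX bind carbohydrate response elements, pairs of E-box-like sequences set apart by a short spacer. The promoter windows below are shown because these genes fell, and their letters come from the RefSeq promoter table on GRCh38.p14, which runs from 250 bases before to 50 bases after a gene's start. A pair of CACGNG copies with 5 bases between them was searched on both strands and lay in 20 of 35116 windows (0.0570%), 1 of them at TXNIP, starting 88 bases before the start. CACGTG, which can overlap that pair, lay in 2548 windows (7.26%), ARRDC4 among them, starting 210 bases before the start. Among tested genes with a window, the shares were higher, with the pair at 16 of 10682 (0.150%) and CACGTG at 1334 (12.5%). Neither was found in a second TXNIP window or in the windows of MPC1, MPC2, ARRDC1, ARRDC2 or ARRDC3. Capitals mark the pair with its spacer in TXNIP (chr1:145996644-145996673, minus strand) and CACGTG in ARRDC4 (chr15:97960481-97960510, plus strand).
TXNIP: gatgtgCACGAGGGCAGCACGAGcctccgg
ARRDC4: aaacggcctgtgCACGTGcacgccggagcc
A match is a description of these letters and was not tested for binding.

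ARRDC4 had 39.5, 40.4 and 33.9 CPM in EV and 17.2, 16.8 and 16.97 CPM in KO. It fell by 1.16 on the log2 scale (SE 0.102, edgeR FDR 3.17e-08). TXNIP, which also inhibits thioredoxin, had 497, 469 and 438 CPM in EV and 318, 312 and 304 CPM in KO, and it fell by 0.59 (SE 0.080, edgeR FDR 7.27e-05). For both genes every KO library was below every EV library. ARRDC3, an alpha-arrestin that sends adrenergic receptors to degradation, went the other way. It had 9.87, 12.8 and 10.8 CPM in EV and 25.5, 23.2 and 17.3 CPM in KO, a rise of 0.98 (SE 0.184, edgeR FDR 0.00404). These 3 calls held when any 1 of the 6 libraries was left out. ARRDC1 (-0.08) and ARRDC2 (0.00) were not called, nor were MLXIP (-0.10) and MLX (-0.22).

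Across all tested genes, 784 were called between KO and EV (5.41%), 460 higher in KO (3.17%) and 324 lower (2.24%), and 3236 had an unadjusted p under 0.05. Effects were mostly small. The median was 0.42 for genes called higher and -0.50 for genes called lower, and 30 rose and 29 fell by at least 2-fold. The CPM ranges of KO and EV did not overlap for 24.1% of all tested genes and for 745 of the 784 called. The count depended on single libraries, from 133 called without EV replicate 3 to 1400 without EV replicate 1, and 112 of the 784 kept their call whichever library was left out. The calls shared with the reported ones had the same direction in each of these fits. Since the fits reuse the remaining libraries of the reported fit, this agreement is not independent support. Of the 106 called genes other than MPC1 that the naming rule chose, 33 kept their call in all 6 fits, and 99 kept it without EV replicate 1, 44 without EV replicate 2, 36 without EV replicate 3, 38 without KO replicate 1, 51 without KO replicate 2 and 83 without KO replicate 3.

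EV replicate 1 lay near the KO libraries for more of the falls than of the rises. Its CPM was nearer to the KO mean than to the mean of the other EV libraries for 144 of the 324 genes called lower (44.4%) and for 37 of the 460 called higher (8.04%). Base composition also differed between called genes and libraries. Median GC content was 41.4% for genes called higher, 51.6% for genes called lower and 47.8% for all tested genes. Across 8586 genes, the deviation of a library from the mean of the KO and EV libraries together was set against GC content. The correlation ran from r = -0.55 in KO replicate 1 to 0.50 in EV replicate 1, with genes not being independent replicates. These deviations include the difference between KO and EV, so they do not measure the spread within a group alone. After a GC correction of each library, which was chosen after seeing the data, 890 genes were called (450 higher and 440 lower). Of these, 627 were shared with the reported calls, all in the same direction, and both fits used the same counts. The part of GC content and of EV replicate 1 in single results was not tested beyond these fits.

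**Figure D2:**
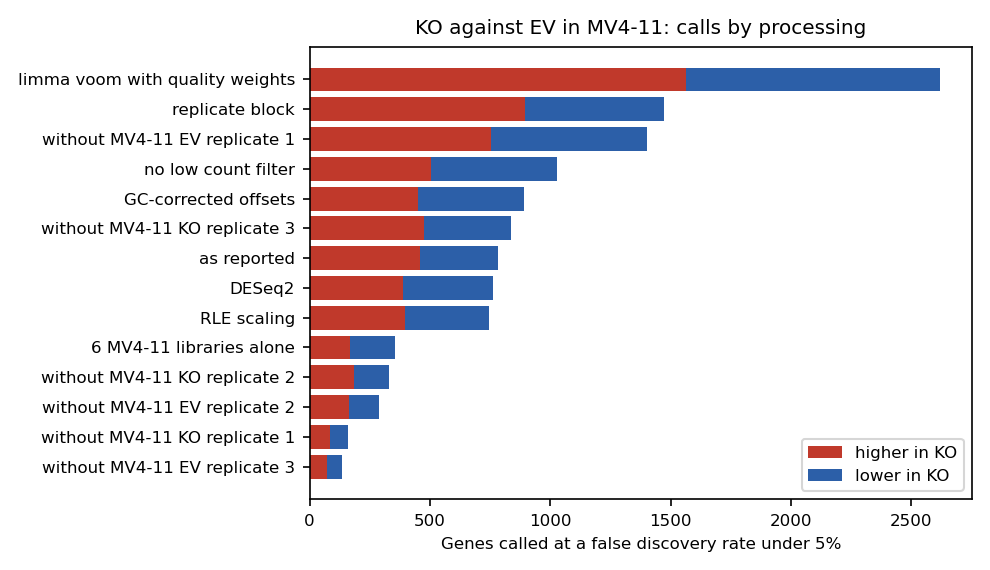
Number of genes called at an FDR under 5% in MV4-11 KO against EV (horizontal axis, bars split into genes higher and lower in KO) under each way of processing (vertical axis). The count ran from 133 without EV replicate 3 to 2621 with quality weights, beside 784 as reported.

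The largest falls besides MPC1 were ARRDC4, ADGRL3, INHBA, GRB10, THSD7A, CLSTN2, ELANE, HNRNPA2B1, MT-ND3 and MT-CO3. By rule these were the 10 called genes with the largest fall among those whose counts averaged 100 or more and whose groups did not overlap, MPC1 aside. ADGRL3, a latrophilin adhesion receptor, had 50.4, 50.6 and 53.4 CPM in EV and 21.8, 20.6 and 20.7 CPM in KO, with each group within a narrow range. It fell by 1.29 (SE 0.086, edgeR FDR 3.3e-10), the lowest FDR of any named gene. INHBA, which encodes the activin A subunit of the TGF-beta family, had 42.0, 48.1 and 49.5 CPM in EV and 18.1, 17.5 and 24.4 CPM in KO and fell by 1.21 (SE 0.157, edgeR FDR 4.15e-05). GRB10, an adaptor that dampens insulin receptor signaling, fell by 1.18 (SE 0.155, edgeR FDR 4.67e-05), from 18.8 ± 1.91 to 8.30 ± 1.33 CPM (SD, n = 3).

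THSD7A, a membrane protein with thrombospondin repeats, had 49.6, 56.9 and 55.0 CPM in EV and 26.2, 23.3 and 28.5 CPM in KO and fell by 1.05 (SE 0.093, edgeR FDR 3.19e-08). CLSTN2, a calsyntenin of the cadherin superfamily, went from 57.6 ± 8.23 to 28.8 ± 2.39 CPM and fell by 0.99 (SE 0.143, edgeR FDR 0.000305). ELANE, the neutrophil elastase of primary granules, went from 193 ± 36.3 to 92.0 ± 9.77 CPM and fell by 1.06 (SE 0.194, edgeR FDR 0.00849), with an FDR of up to 0.056 when 1 library was left out. The splicing factor HNRNPA2B1 had 287, 537 and 511 CPM in EV and 211, 176 and 286 CPM in KO, so EV replicate 1 all but met KO replicate 3. Its fall of 0.99 (SE 0.246, edgeR FDR 0.0378) had an FDR of up to 0.17 with 1 library left out. With ARRDC4, ADGRL3, INHBA, GRB10, THSD7A and CLSTN2 were the 6 of 10 that kept the call in every such fit. MT-ND3, MT-CO3 and HNRNPA2B1 were the 3 for which EV replicate 1 was nearer the KO mean. All 10 were called after the GC correction.

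The 10 largest rises, chosen by the same rule, kept their call whichever library was left out and after the GC correction. LSP1, an actin-binding protein of leukocytes, had 11.0, 8.48 and 8.17 CPM in EV and 20.3, 30.6 and 21.1 CPM in KO and rose by 1.37 (SE 0.177, edgeR FDR 4.15e-05). IRF4, a transcription factor of lymphoid and dendritic cells, had 34.2, 32.4 and 34.4 CPM in EV and 82.2, 80.4 and 81.8 CPM in KO and rose by 1.27 (SE 0.107, edgeR FDR 1.47e-08). The 3 KO libraries of IRF4 lay within 2 CPM of each other. SMIM14, a small membrane protein, rose by 1.26 (SE 0.143, edgeR FDR 4.18e-06), from 14.8 ± 2.14 to 35.3 ± 3.87 CPM.

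ENPP2 encodes autotaxin, the secreted enzyme that makes lysophosphatidic acid, and rose by 0.96 (SE 0.141, edgeR FDR 0.000289). SEL1L3 had 78.8, 72.7 and 72.6 CPM in EV and 151, 141 and 135 CPM in KO and rose by 0.93 (SE 0.075, edgeR FDR 1.33e-08). RNASE6, an antimicrobial ribonuclease of myeloid cells, rose by 0.90 (SE 0.173, edgeR FDR 0.00456). ABCD2, which carries very long chain fatty acyl-CoA into peroxisomes, had 17.6, 20.1 and 18.8 CPM in EV and 36.1, 35.2 and 33.9 CPM in KO and rose by 0.90 (SE 0.135, edgeR FDR 0.000289). The thrombin receptor F2RL3 rose by 0.84 (SE 0.158, edgeR FDR 0.00278). HLA-DRA, the alpha chain of the class II molecule HLA-DR of antigen-presenting cells, rose by 0.83 (SE 0.137, edgeR FDR 0.000726), from 25.1 ± 1.47 to 44.5 ± 5.39 CPM. ARRDC3, described above, completes the 10.

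**Figure D3:**
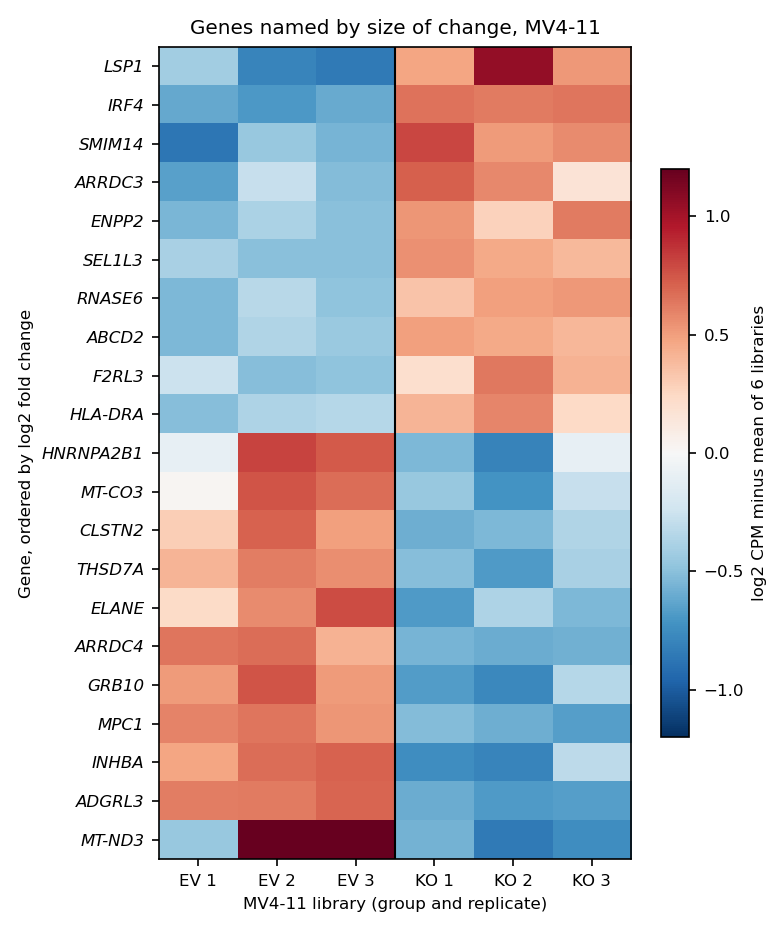
Level of MPC1 and of the 10 largest falls and 10 largest rises (vertical axis, ordered by log2 fold change) in the 6 MV4-11 libraries (horizontal axis, 3 EV and 3 KO), as log2 CPM minus the gene's mean over the 6 libraries. EV replicate 1 is paler than the other EV libraries for HNRNPA2B1 and MT-CO3 and blue for MT-ND3, where it had 21.2 CPM.

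The counts of called genes in the lists below stand beside 3.17% called higher and 2.24% called lower over all tested genes. Counts given without EV replicate 1 stand beside 755 genes called higher and 645 called lower of the 14785 tested in that fit. Of 21 tested genes of glycolysis and lactate export, 1 rose and 2 fell, and the median was 0.04. SLC2A1, the glucose transporter GLUT1, rose by 0.32 (SE 0.097, edgeR FDR 0.0491), from 91.1, 83.9 and 90.4 CPM to 101, 118 and 113 CPM. LDHA, the lactate dehydrogenase subunit that reduces pyruvate, had 427, 562 and 566 CPM in EV and 433, 373 and 409 CPM in KO, and EV replicate 1 lay within the KO range. LDHA fell by 0.36 (SE 0.089, edgeR FDR 0.0193), and GPI, which converts glucose-6-phosphate, fell by 0.32 (SE 0.085, edgeR FDR 0.0282). None of these 3 calls held in all fits with 1 library left out.

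Of 25 TCA cycle and anaplerosis genes, 1 rose and 2 fell, with a median of 0.02. ME3, a mitochondrial malic enzyme that makes pyruvate from malate, had 15.8, 14.5 and 13.4 CPM in EV and 23.2, 22.7 and 19.9 CPM in KO and rose by 0.58 (SE 0.130, edgeR FDR 0.0117). ME1, its cytosolic relative, was close to absent in this line, with 4, 6 and 2 counts in the EV libraries and 0 in each KO library. Against a floor of 3 counts over the KO group it was at least 4.08-fold lower (edgeR FDR 0.00736). DLST, a subunit of the 2-oxoglutarate dehydrogenase complex, fell by 0.32 (SE 0.084, edgeR FDR 0.0246).

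Of 15 glutamine genes, 1 rose and 1 fell, with a median of -0.02. SLC38A1, a sodium-coupled importer of glutamine, had 66.9, 74.7 and 74.6 CPM in EV and 114, 102 and 110 CPM in KO. It rose by 0.59 (SE 0.079, edgeR FDR 5.62e-05), in every KO library above every EV library, and kept the call in all fits with 1 library left out. GOT2, the mitochondrial aspartate aminotransferase, fell by 0.34 (SE 0.092, edgeR FDR 0.0313). Of 22 genes of the carnitine shuttle and fatty acid oxidation, only CPT1A was called and the median was 0.10. CPT1A, which loads long chain fatty acids onto carnitine for entry into mitochondria, had 282, 307 and 305 CPM in EV and 205, 213 and 232 CPM in KO and fell by 0.46 (SE 0.082, edgeR FDR 0.00171), again with the call kept in all such fits.

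Of 31 genes of sterol and fatty acid synthesis, 2 rose and 4 fell, and the median was 0.00. INSIG1, which holds the sterol sensor in the endoplasmic reticulum, rose by 0.42 (SE 0.092, edgeR FDR 0.00992) and MSMO1, an enzyme of the late sterol pathway, by 0.38 (SE 0.110, edgeR FDR 0.0418). The sterol enzymes PMVK, NSDHL and LSS fell by 0.65, 0.42 and 0.38 on the log2 scale, and the fatty acid desaturase SCD fell by 0.30, with edgeR FDRs of 0.0243 to 0.0473. None of the 6 calls held in all fits with 1 library left out.

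Of 16 tested serine and one-carbon enzymes, 0 rose and 3 fell (beside 2.24% of all tested genes), 6 had effects above 0, 9 below and 1 had 0 counts, and the median was -0.11. PSAT1, an aminotransferase of serine synthesis, had 36.6, 47.9 and 49.2 CPM in EV and 29.7, 25.3 and 32.3 CPM in KO, with no overlap between groups. PSAT1 fell by 0.61 (SE 0.110, edgeR FDR 0.00187) and kept the call in all fits with 1 library left out. The folate enzymes MTHFD1 and MTHFD1L fell by 0.43 (edgeR FDR 0.0146) and 0.33 (edgeR FDR 0.0475). Of 31 genes of the ATF4 amino acid stress response, 0 rose and 2 fell, ATF5 (-0.68, edgeR FDR 0.0344) and TRIB3 (-0.57, edgeR FDR 0.03), and the median was 0.04. Of 24 NRF2 and antioxidant genes, 1 rose and 2 fell, with a median of 0.00. PGD, an enzyme of the pentose phosphate pathway that makes NADPH, had 243, 336 and 349 CPM in EV and 208, 195 and 201 CPM in KO and fell by 0.62 (SE 0.097, edgeR FDR 0.000416). The mitochondrial thioredoxin TXN2 fell by 0.49 (edgeR FDR 0.0231), and the mitochondrial peroxiredoxin PRDX3 rose by 0.31 (edgeR FDR 0.0418).

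Transcripts of the mitochondrial genome were low in all libraries and lower in KO. They held 0.211%, 0.452% and 0.392% of counts in EV and 0.161%, 0.140% and 0.202% in KO, which did not overlap (two-sided exact permutation p = 0.1, the smallest that 3 against 3 libraries can give). All 13 protein-coding genes had effects below 0, with a median of -0.75. The CPM ranges of KO and EV did not overlap for 6 of the 13, beside 24.1% of all tested genes. Of the 13, 3 were called, MT-ND3, MT-CO2 and MT-CO3. These encode a subunit of complex I and subunits of complex IV. MT-ND3 had 21.2, 73.9 and 69.5 CPM in EV and 19.6, 16.2 and 17.3 CPM in KO, so EV replicate 1 lay beside the KO libraries, and it fell by 1.62 (SE 0.347, edgeR FDR 0.0195). MT-CO3 had 898, 1489 and 1400 CPM in EV and 645, 536 and 727 CPM in KO and fell by 0.99 (SE 0.246, edgeR FDR 0.0375). MT-CO2 had 169, 443 and 375 CPM in EV and 139, 130 and 183 CPM in KO, so EV replicate 1 lay within the KO range. MT-CO2 fell by 1.13 (SE 0.288, edgeR FDR 0.0426). Each of the 3 was called in 2 of the 6 fits with 1 library left out, and without EV replicate 1 7 genes were called and the median was -0.89. These genes are transcribed together from 1 small circular genome, so they are not independent of each other.

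Nuclear subunits of the respiratory chain were called at shares near those over all tested genes (3.17% higher and 2.24% lower). Of 36 nuclear subunits of complex I, 1 rose (2.78%), NDUFC2 (0.40, edgeR FDR 0.0422), and 0 fell, with a median of 0.05. Of 37 nuclear subunits of complexes III, IV and V, 0 rose and 1 fell (2.7%), ATP5F1D (-0.44, edgeR FDR 0.0341), with a median of 0.06. Cytosolic ribosomal proteins had a median of 0.10 over 78 genes, with 0 called higher and 3 called lower, RPL28, RPL8 and RPS21.

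Primary granules store the proteases and antimicrobial proteins of myeloid cells. Of 15 genes of primary granule proteins, 5 fell (33.3%, beside 2.24% of all tested genes) and 0 rose, 10 were not called, 4 had effects above 0, and the median was -0.34. AZU1, azurocidin, had 348, 382 and 441 CPM in EV and 205, 269 and 244 CPM in KO and fell by 0.70 (SE 0.110, edgeR FDR 0.000435). PRTN3, proteinase 3, had 1108, 973 and 1142 CPM in EV and 597, 765 and 598 CPM in KO and fell by 0.72 (SE 0.115, edgeR FDR 0.000748). In both genes the highest KO library was below the lowest EV library, and both kept the call in all fits with 1 library left out. The others were ELANE, CST7 (-0.57, edgeR FDR 0.0327) and RNASE2 (-0.41, edgeR FDR 0.0448), and without EV replicate 1 the number called lower was 3. The granule enzyme myeloperoxidase (MPO) was not called (-0.46, edgeR FDR 0.0627).

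Of 19 genes of HLA class I and II and their regulators, 6 rose (31.6%, beside 3.17% of all tested genes) and 0 fell, 18 had effects above 0, and the median was 0.32. HLA-DRB1, the class II beta chain, had 13.9, 12.7 and 12.95 CPM in EV and 20.2, 23.9 and 18.2 CPM in KO and rose by 0.65 (SE 0.127, edgeR FDR 0.00378). B2M, the shared light chain of class I, had 1071, 933 and 856 CPM in EV and 1382, 1253 and 1153 CPM in KO and rose by 0.41 (SE 0.109, edgeR FDR 0.0307). The class I heavy chain HLA-F rose by 0.70 (edgeR FDR 0.0448). HLA-DRA and HLA-DRB1 were the 2 that kept the call in all fits with 1 library left out, and 9 of the 19 were called higher without EV replicate 1. HLA genes are highly alike, so reads could be split between them. Of 39 interferon-stimulated genes, 5 rose and 0 fell, with a median of 0.17. These were IFITM1 (0.53), SAMD9L (0.46), IRF1 (0.35), SAMD9 (0.34) and STAT2 (0.27), with edgeR FDRs of 0.0129 to 0.0494, and none held in all fits with 1 library left out.

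Of 23 transcription factors of lymphoid and dendritic cells, 4 rose (17.4%, beside 3.17% of all tested genes) and 0 fell, and the median was 0.14. Beside IRF4, TCF4, the E protein that specifies plasmacytoid dendritic cells, had 192, 206 and 191 CPM in EV and 354, 335 and 327 CPM in KO and rose by 0.78 (SE 0.085, edgeR FDR 2.11e-06). ID2, an inhibitor of E proteins, rose by 0.56 (SE 0.108, edgeR FDR 0.00334), and IRF8, a factor of monocytes and dendritic cells, rose by 0.27 (SE 0.082, edgeR FDR 0.0463). IRF4, TCF4 and ID2 kept the call in all fits with 1 library left out. B cell markers were also higher in sum in KO, and of the 4 of them tested only IGLL1, a component of the pre-B cell receptor, was called (0.65, edgeR FDR 0.0187). Their part in these results was not tested. Of 16 tested genes of the HOXA cluster and MEIS1 program, which mark this class of leukemia, 0 were called by edgeR, DESeq2 or limma, and 0 had an unadjusted p under 0.05. Of the 16, 4 had 0 counts in all 6 libraries and could not be called, and the median of the other 12 was 0.02.

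Of 35 genes of monocyte and macrophage maturation, 3 rose and 1 fell, with a median of 0.19. ANXA2, annexin A2, had 102.1, 81.5 and 91.1 CPM in EV and 164, 154 and 137 CPM in KO and rose by 0.72 (SE 0.109, edgeR FDR 0.000289). S100A11, a calcium-binding protein, had 42.7, 63.4 and 58.0 CPM in EV and 34.0, 30.1 and 36.2 CPM in KO and fell by 0.71 (SE 0.119, edgeR FDR 0.000823). Both kept the call in all fits with 1 library left out, and S100A4 (0.36) and the Fc receptor FCGR2A (0.41), the other 2 called, did not. Of 26 TNF and NF-kB inflammatory genes, 3 rose and 0 fell, with a median of 0.10. CCR1, a chemokine receptor, had 60.0, 57.8 and 50.9 CPM in EV and 78.7, 84.7 and 79.9 CPM in KO and rose by 0.53 (SE 0.088, edgeR FDR 0.0008). IL1B rose by 0.87 (edgeR FDR 0.0104) and ICAM1 by 0.70 (edgeR FDR 0.0453).

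Surface receptors and growth factors moved in both directions. Of 33 integrins and adhesion receptors, 5 rose and 2 fell, with a median of 0.14. ITGB5, an integrin beta chain, had 6.85, 6.73 and 4.32 CPM in EV and 13.1, 13.8 and 12.3 CPM in KO and rose by 1.11 (SE 0.172, edgeR FDR 0.000403). ITGB7, the beta chain of gut homing integrins, rose by 0.57 (SE 0.108, edgeR FDR 0.00294), and ITGA6 rose by 0.54 (SE 0.150, edgeR FDR 0.0356). PECAM1, an adhesion molecule of leukocytes and endothelium, fell by 0.50 (SE 0.122, edgeR FDR 0.0184), with EV replicate 1 at 67.9 CPM inside the KO range of 61.7 to 70.5 CPM. Of 30 secreted growth factors, 3 rose (IGF1, PDGFA and HBEGF, by 0.69, 0.50 and 0.43) and 2 fell (INHBA and GDF11, the latter by 0.60), with a median of 0.03.

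Of 17 cytokine receptors, 2 rose and 1 fell, with a median of 0.06. KIT, the stem cell factor receptor, had 14.6, 19.5 and 20.05 CPM in EV and 31.3, 25.9 and 30.8 CPM in KO and rose by 0.71 (SE 0.138, edgeR FDR 0.00401), with the call kept in all fits with 1 library left out. IL3RA, the interleukin-3 receptor alpha chain, rose by 0.41 (SE 0.10, edgeR FDR 0.0155), and TGFBR1 fell by 0.31 (SE 0.073, edgeR FDR 0.0141). Of 35 feedback genes of MAPK and STAT5 signaling, 2 rose, the phosphatases DUSP6 (0.36, edgeR FDR 0.0178) and DUSP4 (1.32, edgeR FDR 0.0185), and 1 fell, CISH (-0.63, edgeR FDR 0.0289), a STAT5 target. The median was -0.06.

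Of 18 apoptosis regulators, 4 rose (22.2%, beside 3.17% of all tested genes) and 1 fell (5.56%, beside 2.24%), with a median of 0.21. The list holds BCL2 family genes and also BIRC2, which is not of that family and is 1 of the 4 that rose. Without EV replicate 1, 5 were called higher and 0 lower, and the FDR of BAX was 0.0512. The BH3-only genes PMAIP1, BIK and BMF rose by 0.49, 0.49 and 0.34 on the log2 scale and the apoptosis inhibitor BIRC2 rose by 0.36, while the effector BAX fell by 0.39, with edgeR FDRs of 0.0131 to 0.0379. Of 26 p53 targets, 1 rose, RPS27L (0.33, edgeR FDR 0.03), and 2 fell, GADD45A (-0.55, edgeR FDR 0.0418) and BAX. Of 45 genes of DNA replication and mitosis, 3 rose, CDK1, PCNA and GINS2 (by 0.36, 0.29 and 0.29), and 1 fell, the helicase subunit MCM6 (by 0.34). Of 17 hypoxia-inducible factor targets, 2 rose, SLC2A1 and the mitophagy receptor BNIP3L (0.35, edgeR FDR 0.0257). None of the calls in these 4 lists held in all fits with 1 library left out.

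Without EV replicate 1, which stood apart, several of these counts grew. The count over all tested genes grew as well, to 755 higher and 645 lower of 14785, from 460 and 324 of 14490. The genes called were then 4 higher and 1 lower of nuclear complex I, 10 higher and 4 lower of cytosolic ribosomal proteins, 7 higher and 2 lower of DNA replication and mitosis, 6 higher and 2 lower of monocyte maturation, and 1 higher and 4 lower of the TCA cycle. Levels in SEL1L3, INHBA, HNRNPA2B1, MPC2, ITGB7, CISH, ATF5, IGF1, GINS2, the epithelial marker KRT18 and 4 of the genes not called could hold reads of a gene on the opposite strand, because such a gene held over 20% of their counts and the strand setting of the counting is not stated.

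**Figure D4:**
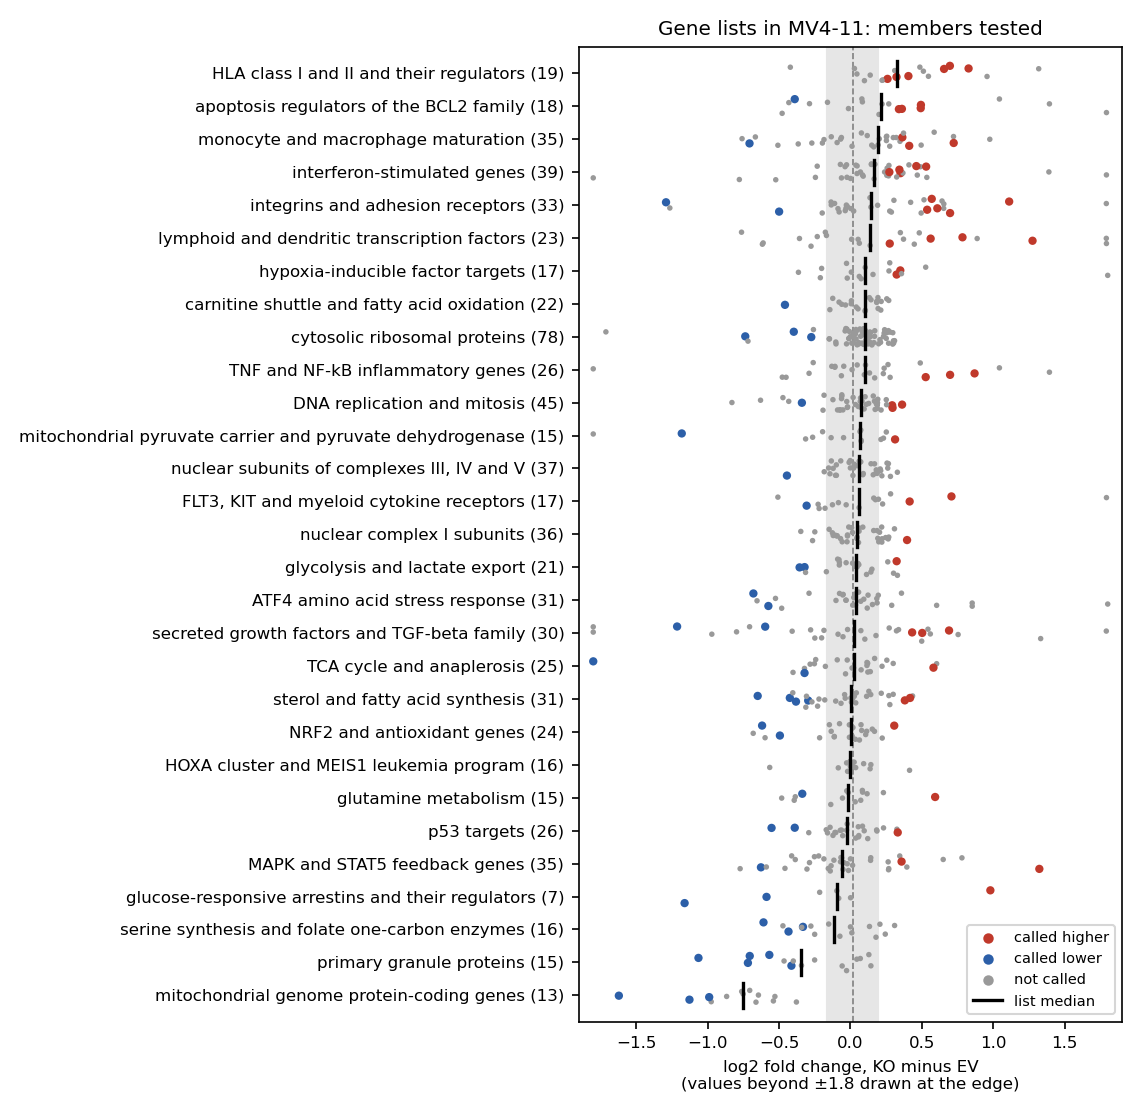
Log2 fold change, KO minus EV, in MV4-11 (horizontal axis) of each tested member of 29 gene lists (vertical axis, number tested in parentheses), with points colored by call and a black bar at the list median. The dashed line and gray band are the median and interquartile range of all tested genes. Medians ran from -0.75 for genes of the mitochondrial genome to 0.32 for HLA genes.

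Molm-14, another FLT3-ITD line, and THP-1, a monocytic line without FLT3-ITD, carried the same KO and EV constructs with 3 libraries per group, and the effects of the lines share no library. In these lines 348 (2.40%) and 13 (0.0897%) of the tested genes were called. MPC1 fell by 1.04 in Molm-14 and 0.84 in THP-1, and the difference from MV4-11 was not called for either line (edgeR FDR 0.702 and 0.421). The knockout effect in MV4-11 differed from that in Molm-14 for 215 genes (1.48%), of which 129 were called in MV4-11. It differed from that in THP-1 for 28 genes (0.193%), of which 26 were called in MV4-11. Both differences and the MV4-11 calls use the same MV4-11 libraries, so their overlaps are not independent support. These differences were above 0 for 78 and below 0 for 137 genes against Molm-14 and above 0 for 16 and below 0 for 12 against THP-1, and 2058 and 1311 genes had an unadjusted p under 0.05.

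The effect in MV4-11 differed from both lines for 13 genes. Among them were 4 of the largest changes, ADGRL3, THSD7A and GRB10, which fell in MV4-11, and SEL1L3. The effects of the first 3 were -0.10, 0.08 and -0.10 in Molm-14, and in THP-1 they were 0.04, -0.12 and 0.11. SEL1L3 was also called higher in Molm-14, with a smaller rise of 0.44 (edgeR FDR 0.000299). In THP-1 its effect was 0.13 (edgeR FDR 0.664). ADGRL3 was not rare in the other lines, at 60.8 CPM in Molm-14 EV and 412 CPM in THP-1 EV. TCF4, which rose in MV4-11, had -0.15 in Molm-14 and -0.06 in THP-1. SLC38A1 and PSAT1 also differed from both, the first with effects of 0.13 in Molm-14 and -0.08 in THP-1 and the second with 0.27 and 0.21. CCR1 lay between the lines, with 1.17 in Molm-14 and -0.06 in THP-1. The following genes were named after their values were seen. The NAD-consuming ectoenzyme CD38 rose by 0.77 in MV4-11 and had effects of -0.37 in Molm-14 and -0.30 in THP-1. The zinc transporter SLC39A10 and the kinase STK38L rose by 0.50 and 0.56 in MV4-11. The receptor CD93 fell by 0.80 in MV4-11 with effects of 0.48 in Molm-14 and -0.04 in THP-1.

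ARRDC4 and TXNIP differed in how the lines compared. ARRDC4 fell in each line, by 0.61 in Molm-14 and 1.02 in THP-1, and the difference from MV4-11 was not called for either (edgeR FDR 0.0847 and 0.815). TXNIP fell by 0.64 in THP-1 and had an effect of -0.07 in Molm-14, and the difference between MV4-11 and Molm-14 was called (-0.52, edgeR FDR 0.0167). INHBA and CLSTN2 moved in opposite directions in the FLT3-ITD lines. INHBA rose by 1.35 in Molm-14 from 1.39 CPM in EV (difference -2.56, edgeR FDR 0.00016) and CLSTN2 rose by 2.32 from 0.73 CPM (difference -3.32, edgeR FDR 8.61e-05), both levels far below those of MV4-11 EV. Of the 10 largest rises, SEL1L3 was the only one whose effect was called different from that in Molm-14. IRF4 had an effect of 1.18 there (edgeR FDR 0.246), with 0.53 CPM in Molm-14 EV.

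**Figure D5:**
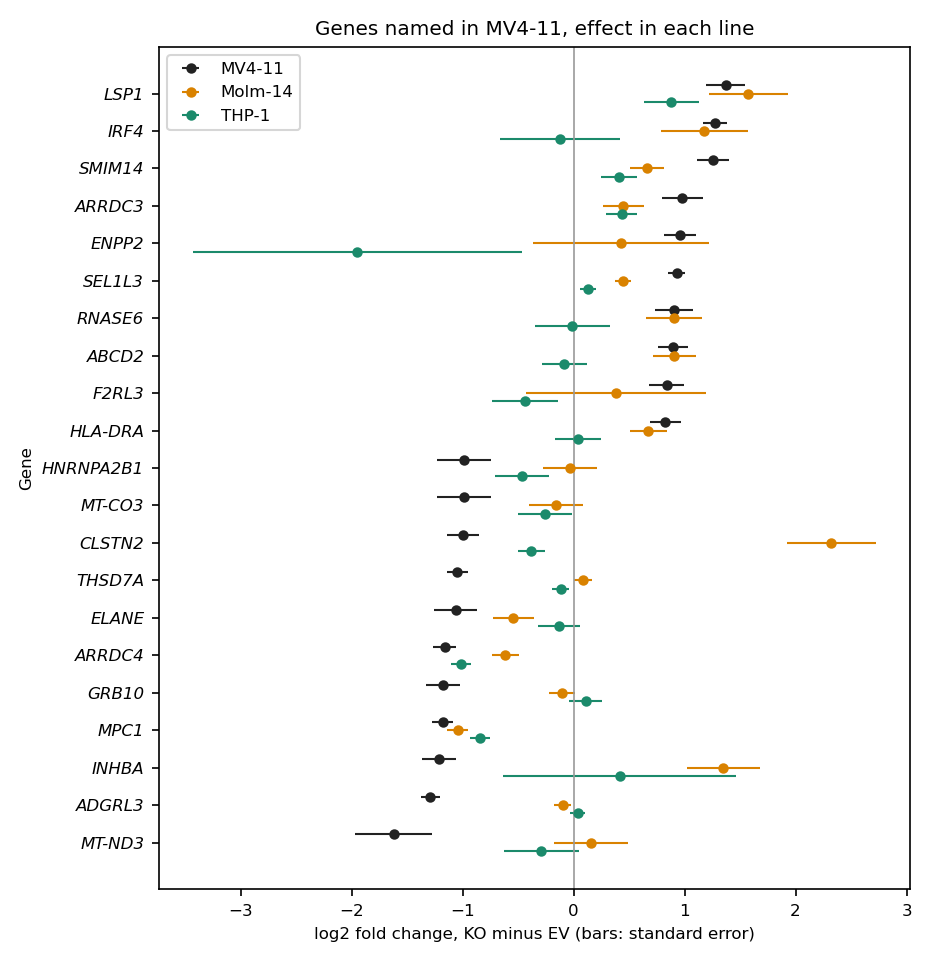
Knockout effect (log2 fold change, KO minus EV, bars are the standard error) on MPC1 and the 20 genes with the largest changes in MV4-11 (vertical axis), in MV4-11, Molm-14 and THP-1. MPC1 and ARRDC4 lie below 0 in all 3 lines, and ADGRL3, THSD7A and GRB10 lie near 0 outside MV4-11.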

How the data were processed

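RNA was measured in 30 libraries of human AML cell lines, made per the labels with a stranded total RNA kit after ribosomal RNA depletion, and the 6 MV4-11 KO and EV libraries are described here. The deposited values were raw counts per Ensembl gene. Before deposit, the authors took out optical duplicates and adapters and used STAR for alignment to GRCh38 and featureCounts for counting, and the submitters' processing notes list STAR 2.7.6a, cutadapt 1.16 and featureCounts 1.6.3. Strand use is not given in the sources used here. The methods name an Ensembl release, but the deposited tables list different gene IDs, so the release behind this one is uncertain, and names and positions came from GENCODE 44, which held 56948 of 58051 IDs. Total counts were 6230695 to 8493516 per MV4-11 library.

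Counts of the 18 knockout libraries were fitted in 1 model of 6 groups with edgeR 4.0.16 in R 4.3.3 (filterByExpr, TMM, robust quasi-likelihood test), with KO minus EV in each line, and MV4-11's effect minus that of another line, as contrasts, Benjamini-Hochberg adjustment over 14490 genes and an FDR under 5%. CPM use TMM-scaled library sizes. Replicate pairs of a group differed by more than sampling noise (chi-square per degree of freedom 2.48 to 11.8), so all libraries were kept. Named genes are MPC1, the 10 largest rises and falls (mean of at least 100 counts, no overlap between groups), up to 5 called genes each way per list, all members of the carrier, arrestin and mitochondrial genome lists, and the genes nearest MPC1. The members, the 35 gene lists, the tests and the alternatives were chosen with earlier results of these data known, so lists are described by counts and medians with no set test. Alternatives were relative log expression (RLE) scaling, no filter, DESeq2 1.42.0, limma 3.58.1 voom with quality weights, the 6 libraries alone, a replicate block, each library left out and, added after seeing the data, a GC correction (per library, lowess of the log ratio to the gene's mean over all libraries on GC content). The fit was tested on simulated counts. It recovered 70 of 100 genes changed 1.5-fold and 96 of 100 changed 2-fold, and it called 13 unchanged genes. These counts were drawn from fitted means and dispersions without the GC trends of the libraries or the shift of EV replicate 1. The test therefore does not give the error rate in these libraries. The miR-1 overexpression libraries were not used here. Results for some genes are not reported here.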

Additional observations from a re-analysis of the deposited data

Results flagged for a closer look

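For 31 of the 144 genes that the naming rule chose, the knockout effect in MV4-11 differed from that in Molm-14 or THP-1. This was a test of the difference itself in the same edgeR model. Over all tested genes, 1.48% differed from Molm-14 and 0.193% from THP-1. The rule chose most of the named genes by their MV4-11 values, which the difference also uses, so a larger share among them follows from that choice. Each value below is the MV4-11 effect minus that of the other line on the log2 scale. Against Molm-14 and THP-1 in turn, the difference was -1.19 (edgeR FDR 9.16e-07) and -1.33 (5.57e-08) for the latrophilin ADGRL3, -1.13 (4.35e-06) and -0.93 (0.000165) for THSD7A, -1.07 (0.00294) and -1.29 (0.00427) for GRB10, and 0.49 (0.0122) and 0.80 (0.000165) for SEL1L3. For the E protein TCF4 it was 0.93 (0.000773) and 0.84 (0.0017), for the glutamine importer SLC38A1 0.46 (0.0232) and 0.67 (0.00309), for the serine enzyme PSAT1 -0.88 (0.00111) and -0.82 (0.0118), and for the chemokine receptor CCR1 -0.64 (0.00978) and 0.59 (0.0438).

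Some genes differed from Molm-14 by over 2 on the log2 scale, most of them with low levels in 1 of the lines. The difference was -3.32 (edgeR FDR 8.61e-05) for CLSTN2, -2.56 (0.00016) for INHBA, 2.46 (4.57e-09) for ITGA6, 2.14 (0.00621) for IFITM1 and 2.05 (0.00175) for IGLL1. The fitted difference for ME1 was -4.82 (0.0167), and since ME1 had 0 counts in each MV4-11 KO library this value depends on the prior count. The difference from Molm-14 was 1.16 (0.0449) for KRT18.

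In metabolism, the differences from Molm-14 were -0.52 (edgeR FDR 0.0167) for TXNIP, -0.48 (0.0369) for CPT1A, -0.72 (0.00547) for PGD, -1.05 (0.0127) for PMVK and -0.70 (0.0434) for TXN2. Among other groups they were -0.62 (0.042) for BAX, 0.71 (0.0342) for BIK, 0.54 (0.0312) for BIRC2, -0.56 (0.00942) for IRF8, -0.50 (0.0484) for MCM6, -0.61 (0.00763) for RPL8, -0.54 (0.00889) for RPS21 and -0.68 (0.0479) for S100A11. The differences from THP-1 were 1.26 (0.0148) for ITGB5, -0.74 (0.00427) for SCD and -0.99 (0.0109) for TRIB3.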

How the results depend on the processing

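MPC1 kept its call and direction under every alternative run (-1.24 to -1.14 on the log2 scale), and no named gene that was called changed direction with a call. Reported counts were 784 called genes in MV4-11 (460 higher, 324 lower) and 215 and 28 genes whose effect differed from Molm-14 and THP-1. With the 6 MV4-11 libraries alone, 356 were called (167 higher, 189 lower). Of the called named genes other than MPC1, 54 kept their call in that fit and 51 did not. Voom with quality weights gave 2621 (1562 and 1059), with 1486 and 125 differences. Without a filter 34732 genes were tested, and 1028 were called (503 higher, 525 lower), with 339 and 80 differences. DESeq2 gave 764, with 272 and 45 differences, and RLE scaling gave 746. The GC correction, chosen after seeing the data, gave 890, with 49 differences from THP-1. The share of called genes that were higher was 58.7% as reported, 46.9% with the 6 libraries alone, 48.9% without a filter, 50.6% with the GC correction and 50.7% with DESeq2.

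With 1 library left out, 133 to 1400 genes were called, 72 to 755 higher and 61 to 645 lower, with 105 to 369 differences from Molm-14 and 18 to 53 from THP-1. The lowest values were without EV replicate 3 (for THP-1, KO replicate 1 also gave 18), and the highest without EV replicate 1. The cause of these shifts was not tested. With the replicate number as a block, 1474 were called (896 higher, 578 lower), with 388 and 52 differences. Deviations of same-numbered KO and EV libraries correlated across genes at 0.01, -0.25 and 0.08, and not every library correlated best with its own number, so the numbers were not taken to pair the libraries. With 6230695 to 8493516 counts per library, genes under 0.348 CPM lay below 3 counts.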

Other observations

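Called genes lay on all nuclear chromosomes tested. The share called higher ran from 1.32% on chromosome 20 to 5.84% on chromosome 8 and the share called lower from 1.21% on chromosome 15 to 3.34% on chromosome 19, with chromosome medians between -0.03 and 0.07 on the log2 scale. Among tested genes with a RefSeq promoter window, CACGTG lay in 44 of 267 called lower (16.5%), in 37 of 362 called higher (10.2%) and in 1334 of 10682 in all (12.5%), which is given as a description with no test. Replication-dependent histone genes held 1.44%, 1.12% and 1.22% of counts in EV and 1.38%, 1.54% and 1.30% in KO, which overlapped (two-sided exact permutation p = 0.3).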
